A study of Mus musculus with 12 samples.

Results

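Astrocytes clear and recycle the transmitters glutamate and GABA, and 7 genes of this work are described here: Slc1a2, Slc1a3, Slc6a11, Glul, Glud1, Slc7a11 and Grm3. They were chosen by symbol as genes of astrocyte function, with earlier results of these data known. All 7 were found among the 40853 gene symbols of both deposited count tables. The microglia and astrocytes came from dissociated whole brains by fluorescence-activated sorting, from mice of 8 to 9 weeks that were wild type (WT) or labelled knockout (KO) for Kpna4, which encodes importin α4, a carrier of proteins into the nucleus. Lipopolysaccharide (LPS), an endotoxin that provokes inflammation, had been injected into the peritoneal cavity of every animal, WT included, at 1 mg/kg and 20 h before dissection, so no value below describes unstimulated brain. The 4 groups, WT microglia, KO microglia, WT astrocytes and KO astrocytes, held 3 libraries each, and the 6 animals each gave 1 library of both cell types. The sources used here do not give the deleted part of Kpna4.

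Neurons release glutamate and GABA, and astrocytes around the synapse take both up again. Slc1a2 encodes GLT-1 and Slc1a3 encodes GLAST, the sodium-coupled transporters that clear most of the glutamate of the forebrain and of the cerebellum, respectively. Inside the astrocyte, glutamine synthetase (Glul) converts glutamate and ammonia to glutamine, which returns to neurons, and glutamate dehydrogenase (Glud1) feeds glutamate into the tricarboxylic acid cycle. Slc6a11 encodes the GABA transporter GAT-3, Slc7a11 encodes xCT, the light chain of the exchanger that imports cystine for glutathione synthesis and releases glutamate, and Grm3 encodes the metabotropic receptor mGluR3.

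The sequences before the start sites are shown for 4 genes: Slc6a11 and Slc1a2, which had the largest differences between the cell types among the members, Glud1, which had the smallest, and Slc7a11, whose sequence repeats a known response element. Each run is the 250 bases before the start that RefSeq gives on the build GRCm38.p6, written 5′ to 3′ on the strand of the gene, and all 7 members were matched by symbol. The counts were made on GRCm39 per the submitters' processing notes, so these positions are not those of the counting. In the first 3 sequences the capitals mark CG dinucleotides.
Slc6a11 (chr6:114130991-114131240, plus strand): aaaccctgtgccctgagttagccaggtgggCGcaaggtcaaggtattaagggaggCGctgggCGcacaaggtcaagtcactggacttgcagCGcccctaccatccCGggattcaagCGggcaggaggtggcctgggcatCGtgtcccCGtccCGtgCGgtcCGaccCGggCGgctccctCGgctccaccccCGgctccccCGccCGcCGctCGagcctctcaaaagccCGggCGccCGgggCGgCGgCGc
Slc1a2 (chr2:102706188-102706437, plus strand): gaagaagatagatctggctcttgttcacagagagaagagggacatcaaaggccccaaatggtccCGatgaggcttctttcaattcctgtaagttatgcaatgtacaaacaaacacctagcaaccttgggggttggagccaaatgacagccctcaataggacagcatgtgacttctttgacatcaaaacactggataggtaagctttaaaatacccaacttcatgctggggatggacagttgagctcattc
Glud1 (chr14:34310477-34310726, plus strand): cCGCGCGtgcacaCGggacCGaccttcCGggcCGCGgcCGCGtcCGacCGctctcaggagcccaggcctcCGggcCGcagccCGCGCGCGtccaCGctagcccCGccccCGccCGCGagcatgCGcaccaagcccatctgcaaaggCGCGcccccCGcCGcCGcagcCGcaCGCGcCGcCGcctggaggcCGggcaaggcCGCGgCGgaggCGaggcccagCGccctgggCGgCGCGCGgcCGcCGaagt
In the next sequence the capitals mark TGATGCAA, the amino acid response element bound by ATF4 with its partners, read on either strand.
Slc7a11 (chr3:50443614-50443863, minus strand): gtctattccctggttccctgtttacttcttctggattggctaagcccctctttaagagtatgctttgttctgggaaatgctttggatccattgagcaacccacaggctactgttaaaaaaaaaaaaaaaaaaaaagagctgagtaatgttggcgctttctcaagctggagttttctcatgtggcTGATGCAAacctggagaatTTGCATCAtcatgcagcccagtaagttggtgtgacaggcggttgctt

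The Slc7a11 sequence held TGATGCAA 2 times, once on each strand, from 66 to 59 and from 47 to 40 bases before the start, while 0.791% of the 32851 sequences of this length held it at least once. None of the other 6 members had a match. CG dinucleotides numbered 1 before Slc1a2, 2 before Slc1a3, 2 before Slc7a11, 8 before Grm3, 15 before Glul, 25 before Slc6a11 and 46 before Glud1, against a median of 6 over all sequences. Slc6a11 and Slc1a2, the members with the largest excess in astrocytes, thus differed in this respect, and 10.7% of all sequences held as many CG dinucleotides as Slc6a11 or more. The GC box GGGCGG, searched on both strands, was found before Slc1a3, Glul, Glud1, Slc6a11 and Grm3 and in 32.7% of all sequences. The antioxidant response element core TGACNNNGC was found before Slc6a11 only among the members, not before Slc7a11, and in 10.2% of all sequences. The TATA box TATAAA was found before Slc1a3 only among the members and in 12.4% of all sequences. These are matches of letters in 1 window per gene and say nothing of binding.

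Total estimated counts ran from 10319842 to 15575662 per library. Kpna4 itself was at 59.8 to 96.4 CPM (counts scaled to a common library total) in microglia and at 40.1 to 80.2 CPM in astrocytes, and in neither cell type did the genotypes separate. These whole-gene counts do not check the genotype labels, so KO below means libraries labelled KO. Summed over 12 astrocyte markers, the astrocyte libraries stood at 9893 to 12792 CPM and the microglia libraries at 127 to 339 CPM. Summed over 10 microglia markers, the microglia libraries stood at 16115 to 20134 CPM and the astrocyte libraries at 160.3 to 602 CPM. All markers of both lists had counts in every group. The 10 neuronal markers summed to 99.7 to 176 CPM in the astrocyte libraries and to 11.4 to 29.1 CPM in the microglia libraries. Oligodendrocyte markers were the largest other list in astrocytes, at 867 to 4037 CPM. The counts of 8 abundant non-coding transcripts (among them mt-Rnr1, mt-Rnr2, Rn7sk and Malat1) took 11.8% to 15.4% of the microglia totals and 26.2% to 39.5% of the astrocyte totals, which leaves a smaller part of the astrocyte totals for all other genes.

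All 7 members were higher in astrocytes than in microglia by edgeR's quasi-likelihood test on the 12 libraries, at an adjusted p under 0.05, and in each of the 6 animals. The background is wide: 64.6% of the 17294 genes tested were called between the cell types, 36.4% higher and 28.2% lower in astrocytes, and 67.5% had an unadjusted p under 0.05. In all 7 members the 6 astrocyte libraries lay above the 6 microglia libraries in CPM, as they did in 21.7% of all genes, and 5 of 7 were at least 8-fold higher by edgeR, against 20.5% of all genes. The members' log2 fold changes ran from 1.73 (Glud1) to 6.69 (Slc6a11) with a median of 4.95, where the median over all genes was 0.19. The members were chosen as genes of astrocyte function, so their excess over these shares describes the choice and is no test of enrichment. In bulk libraries fewer cells of a type and less RNA per cell cannot be told apart, and the sorting gate and any separate handling of the 2 cell types cannot be told apart from cell type.

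**Figure D1:**
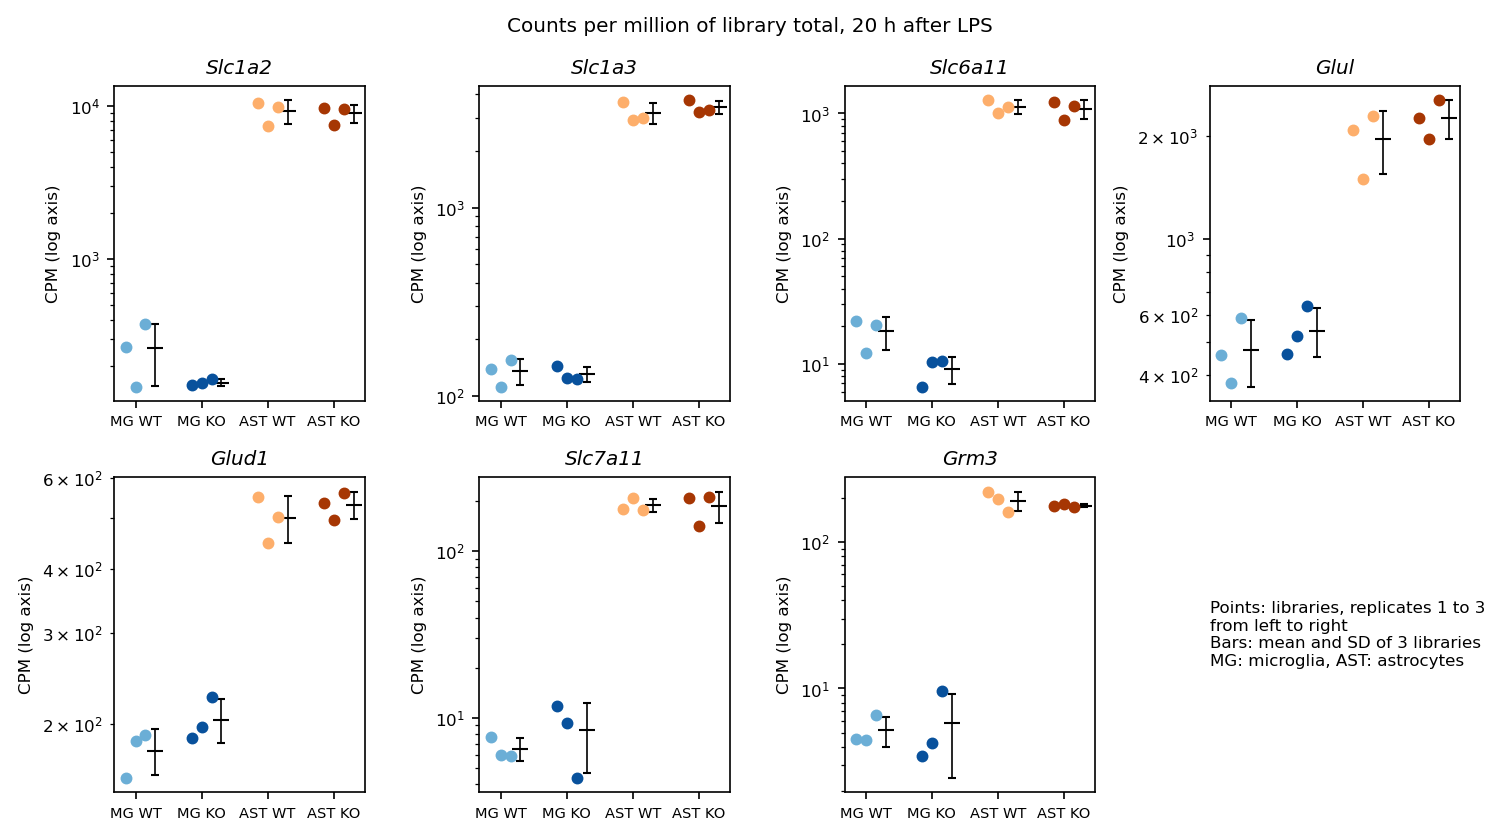
CPM (log axis) of the 7 members in the 4 groups. Points are libraries, and the bars give the mean and SD of 3 libraries. In every panel all 6 astrocyte libraries lie above all 6 microglia libraries, with the narrowest gaps for Glul and Glud1.

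Slc1a2, the GLT-1 transporter gene, had the most counts of the members in astrocytes, while Glul had more in every microglia library. It stood at 10543, 7450.1 and 9848 CPM in the WT astrocyte libraries and at 9786, 7569 and 9563 CPM in the KO astrocyte libraries. In microglia it was at 267, 147 and 375 CPM in WT and at 150.5, 155 and 165 CPM in KO. The astrocyte libraries lay far above the microglia libraries without overlap, and the WT microglia libraries were the most uneven group. The log2 fold change of astrocytes over microglia was 5.76 (SE 0.25, edgeR adjusted p 1.77e-10).

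Slc1a3, the GLAST transporter gene, was at 3669, 2937 and 2984 CPM in WT astrocytes and at 3723, 3243 and 3290.0 CPM in KO astrocytes. The microglia libraries held 139, 112 and 156 CPM in WT and 145, 125 and 123 CPM in KO, with little spread between animals. The log2 fold change was 4.92 (SE 0.18, edgeR adjusted p 5.38e-11). Slc1a2 and Slc1a3 did not keep one proportion: the ratio of their CPM was 2.90 ± 0.383 and 2.62 ± 0.286 in WT and KO astrocytes, and 1.88 ± 0.548 and 1.21 ± 0.156 in WT and KO microglia (SD, n = 3 each). The ratio of 1 WT microglia library reached into the range of the astrocyte libraries.

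Slc6a11, the GAT-3 GABA transporter gene, showed the largest difference of the 7. Its levels were 1274, 1000.5 and 1129 CPM in WT astrocytes and 1238, 883 and 1145 CPM in KO astrocytes. In microglia they were 22.2, 12.1 and 20.5 CPM in WT and 6.59, 10.4 and 10.5 CPM in KO. The cell types were thus far apart in every animal, and in microglia the 3 KO libraries lay below the 3 WT libraries. Its log2 fold change of astrocytes over microglia was 6.69 (SE 0.24, edgeR adjusted p 5.15e-11), a 103-fold difference.

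The 2 enzymes of glutamate conversion differed least between the cell types. Glul was at 2082, 1496.5 and 2293 CPM in WT and 2259, 1959.7 and 2541 CPM in KO astrocytes, against 457, 381 and 587 CPM in WT and 462, 523 and 636 CPM in KO microglia. Glud1 was at 551, 448 and 502 CPM in WT and 535, 496 and 561 CPM in KO astrocytes, against 157, 185 and 190.2 CPM in WT and 188, 197 and 226 CPM in KO microglia. Neither gene's cell types overlapped, but their log2 fold changes were only 2.33 for Glul (SE 0.17, edgeR adjusted p 2.00e-08) and 1.73 for Glud1 (SE 0.13, edgeR adjusted p 3.48e-08). The Glul to Glud1 ratio of CPM was 3.89 ± 0.619 and 4.23 ± 0.292 in WT and KO astrocytes and 2.68 ± 0.551 and 2.64 ± 0.177 in WT and KO microglia (SD, n = 3 each).

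The exchanger gene Slc7a11 and the receptor gene Grm3 had fewer counts. Slc7a11 was at 181, 210.3 and 178 CPM in WT and 209, 143 and 214 CPM in KO astrocytes, and at 7.69, 6.01 and 5.86 CPM in WT and 11.8, 9.28 and 4.34 CPM in KO microglia. Grm3 was at 217, 195 and 161 CPM in WT and 176, 183 and 172 CPM in KO astrocytes, and at 4.52, 4.49 and 6.62 CPM in WT and 3.49, 4.27 and 9.64 CPM in KO microglia. In both genes the KO microglia libraries spread on both sides of the WT libraries. Their microglia values rest on 63 to 122 counts for Slc7a11 and 36 to 140 counts for Grm3 per library. The log2 fold changes of astrocytes over microglia were 4.95 for Slc7a11 (SE 0.24, edgeR adjusted p 3.76e-10) and 5.35 for Grm3 (SE 0.27, edgeR adjusted p 6.32e-10).

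Levels of different genes can be set side by side only per length, and the cDNA was full-length. Per kilobase of the union of exons in the GENCODE M21 annotation, the astrocyte libraries (n = 6) held 695 ± 98.6 CPM per kb of Slc1a2, 633 ± 108 of Glul, 387 ± 38.8 of Slc1a3, 220.1 ± 29.2 of Slc6a11, 122 ± 9.98 of Glud1, 60.4 ± 6.51 of Grm3 and 13.6 ± 1.97 of Slc7a11 (SD). Slc1a2 and Glul overlapped between libraries, and the other neighbours in that order did not. With the longest coding transcript as the length, a choice made after the data were seen, Slc1a3, Slc1a2 and Glul came to 795, 787 and 754 CPM per kb and overlapped, so the order of these 3 depends on the length used. The places of the other 4 genes did not move. In microglia the order was different: Glul led with 153 ± 28.1 CPM per kb, followed by Glud1 with 45.3 ± 5.25 (SD, n = 6), without overlap between them. Slc1a2 and Slc1a3 followed at 15.98 ± 7.06 and 15.6 ± 1.89 CPM per kb and overlapped. By the longest coding transcript the pair changed order, with Slc1a3 at 32.0 and Slc1a2 at 18.1 CPM per kb. Slc6a11 at 2.72 ± 1.23, Grm3 at 1.81 ± 0.747 and Slc7a11 at 0.539 ± 0.195 CPM per kb came last (SD, n = 6), and Slc6a11 overlapped with Grm3.

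The level in microglia was also expressed as a percent of that in astrocytes and set beside 12 astrocyte markers that are not members, Ndrg2 among them. The markers stood at 1.03% (Gja1) to 5.19% (S100b), with a median of 1.52%. Slc6a11 was at 1.23%, Slc1a2 at 2.30%, Grm3 at 2.99%, Slc7a11 at 3.97% and Slc1a3 at 4.03%, all within the range of the markers. For Slc7a11 and Slc1a3 that rests on S100b alone, since the next marker, Aldh1l1, stood at 3.32%. Over the KO animals Slc7a11 at 4.50% and Slc1a3 at 3.82% lay above every marker, the highest being S100b at 3.34%. Over the WT animals they were at 3.43% and 4.24%, below S100b at 6.90% and Aldh1l1 at 4.56%. Glul at 24.1% and Glud1 at 37.0% lay above every marker, and their lowest single animals, at 20.5% and 28.5%, lay above the highest single-animal value of any marker, 9.24%. Astrocyte marker RNA was thus present in every microglia library, and its part in the members' values was not tested. With the CPM scaled by edgeR's TMM factors the percentages of Glul, Glud1 and Slc1a3 were 19.8%, 30.2% and 3.30%.

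**Figure D2:**
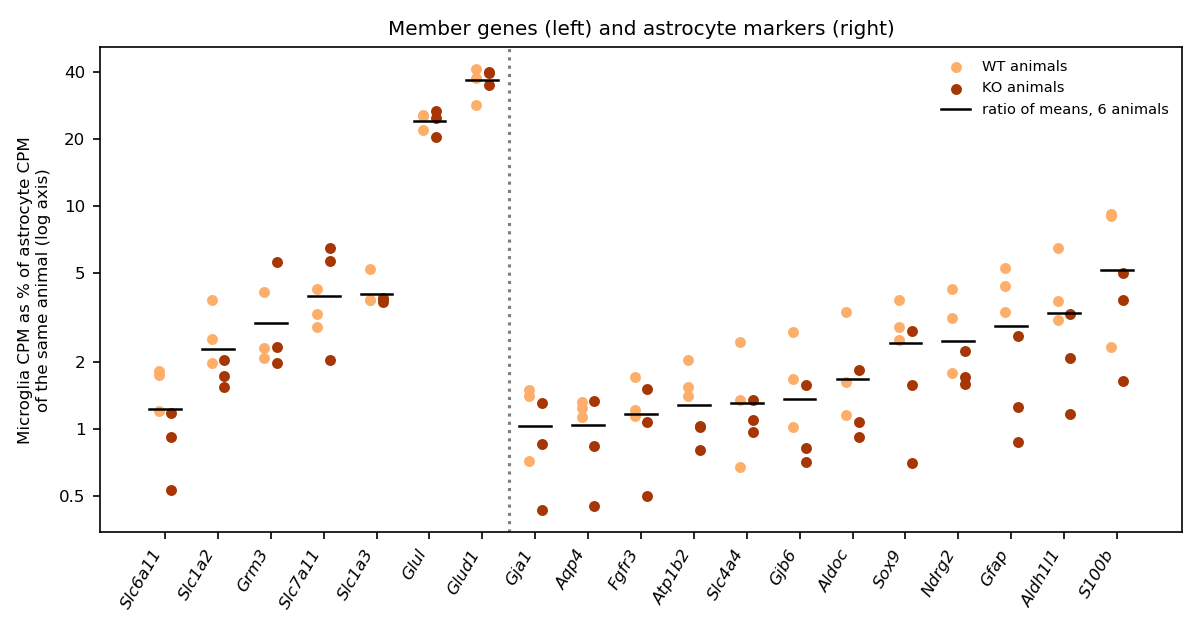
Microglia CPM as a percent of the astrocyte CPM of the same animal (log axis) for the 7 members and 12 astrocyte markers. Points are animals and bars the ratio of means. Glul and Glud1 stand at 24.1% and 37.0%, above all markers, while the other 5 members lie between 1.23% and 4.03%.

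Between genotypes, edgeR called 0 of the 7 members in astrocytes and 0 of 7 in microglia, and 0% of all genes tested were called in either cell type. In astrocytes 0 of 7 members had an unadjusted edgeR p under 0.05, against 2.37% of all 15755 genes, and DESeq2 and voom called 0 of 7 too. In microglia 2 of 7, Slc1a2 and Slc6a11, had one, against 7.42% of all 14191 genes, and there too DESeq2 and voom called 0 members. For the 3 against 3 libraries of a cell type an exact permutation test cannot give a p below 0.1.

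**Figure D3:**
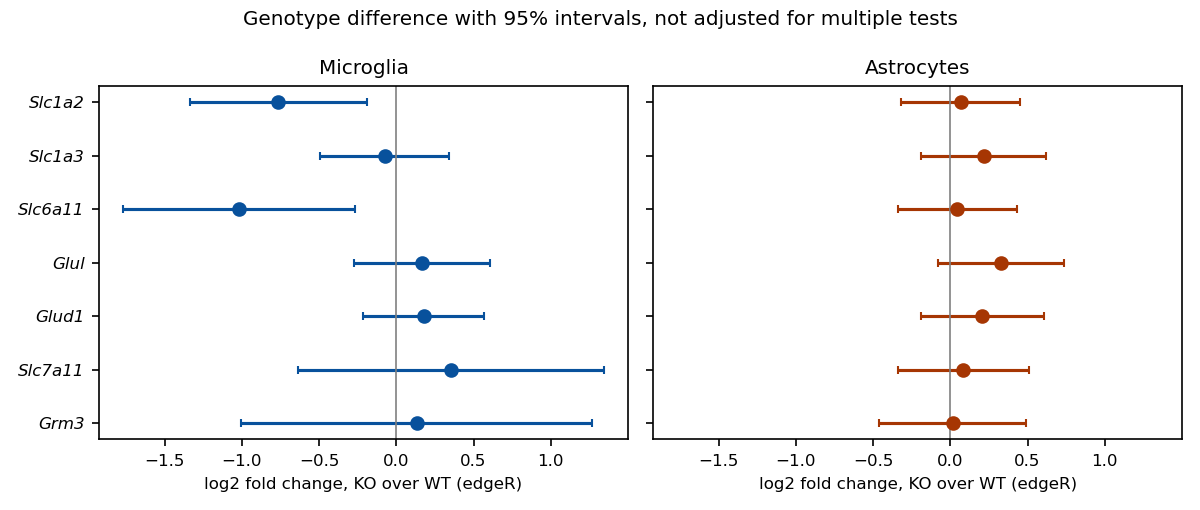
log2 fold change of KO over WT by edgeR for the 7 members in microglia (left) and astrocytes (right), with 95% intervals that are not adjusted for multiple tests. The astrocyte values lie between 0.014 and 0.33 and every astrocyte interval includes 0, while those of Slc1a2 and Slc6a11 in microglia lie below 0.

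In astrocytes the members' means differed little between genotypes. Slc1a2 averaged 9280.2 ± 1623 CPM over the WT libraries and 8973 ± 1221 CPM over the KO libraries, Slc1a3 3197 ± 409.7 and 3419 ± 265 CPM, and Slc6a11 1135 ± 137 and 1089 ± 184 CPM (SD, n = 3 each). Their log2 fold changes were 0.066 (95% interval -0.32 to 0.45), 0.22 (-0.19 to 0.62) and 0.046 (-0.34 to 0.43), with an edgeR adjusted p of 0.999 for all 7 members. Glul had the largest value, 0.33 (-0.080 to 0.73), from 1957 ± 413 CPM for WT and 2253 ± 291 CPM for KO (SD, n = 3 each). Glud1 was at 0.21, Slc7a11 at 0.082 and Grm3 at 0.014. The sign of all 7 was positive in this fit, but with library totals in place of TMM factors it turned negative for 4 of them, Slc1a2, Slc6a11, Slc7a11 and Grm3, so no common direction is given. That change of scaling moved the median of all genes by -0.11.

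Within the astrocyte groups several members were low in the same libraries. Replicate 2 of each genotype had the lowest CPM of its group for 5 of the 7 genes, Slc1a2, Slc1a3, Slc6a11, Glul and Glud1, but not for Grm3, and for Slc7a11 in KO only. The same held for 27.0% of the 15755 genes tested in astrocytes, and the sum of the astrocyte markers was also lowest there, at 9893 CPM for WT and 11511 CPM for KO. In these libraries the 8 abundant non-coding transcripts took 32.0% of the WT and 39.5% of the KO counts, the highest shares of their groups, and the TMM factors scaled the totals to 0.892 and 0.719 of their size, the lowest in their groups. The part of that share in the low CPM was not tested.

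In microglia Slc6a11 averaged 18.3 ± 5.40 CPM over the WT libraries and 9.17 ± 2.23 CPM over the KO libraries, and Slc1a2 averaged 263 ± 114 and 157 ± 7.49 CPM (SD, n = 3 each). KO over WT gave Slc6a11 a log2 fold change of -1.02 (95% interval -1.77 to -0.27, unadjusted edgeR p 0.0115, edgeR adjusted p 0.587, exact permutation p 0.1). For Slc1a2 it was -0.76 (95% interval -1.34 to -0.19, unadjusted edgeR p 0.0126, edgeR adjusted p 0.587, exact permutation p 0.4), and it was -0.44 without WT replicate 3. Neither passed the threshold. WT and KO libraries did not overlap for Slc6a11 alone, 1 of 7 members, where 13.1% of all genes did not overlap in microglia and 8.13% in astrocytes. In astrocytes 0 of 7 were without overlap. The other 5 members in microglia had log2 fold changes from -0.075 (Slc1a3) to 0.35 (Slc7a11), with edgeR adjusted p from 0.862 to 0.970.

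The astrocyte markers summed to 242, 133 and 339 CPM in WT microglia replicates 1 to 3 and to 127, 172 and 137 CPM in KO replicates 1 to 3. Slc1a2, Slc6a11 and this sum were all lowest in replicate 2 of WT and in replicate 1 of KO. The order of the other libraries was not the same throughout. Slc1a2 kept nearly the same proportion to that sum in microglia of both genotypes, 1.11 ± 0.00577 for WT and 1.095 ± 0.172 for KO, above its 0.800 ± 0.0454 and 0.729 ± 0.0615 in WT and KO astrocytes (SD, n = 3 each). For Slc6a11 the proportion in microglia was 0.0812 ± 0.0178 for WT and 0.0630 ± 0.0128 for KO (SD, n = 3 each), with overlap between the genotypes. With the marker score, the mean log2 CPM of these markers, as a covariate the log2 fold change in microglia was -0.017 for Slc1a2 and -0.52 for Slc6a11. The same covariate moved Glul from 0.16 to 0.48 and Slc1a3 from -0.075 to 0.12. The score was 4.06, 3.25 and 4.53 in WT and 3.06, 3.49 and 3.21 in KO libraries, so this fit cannot fully separate it from genotype. The ratio to the marker sum in microglia was 0.627 ± 0.198 for Slc1a3 and 2.16 ± 0.617 for Glul in the WT libraries, and 0.919 ± 0.208 and 3.77 ± 0.813 in the KO libraries (SD, n = 3 each). Markers of some other cell types were also lower in KO microglia by the fitted values, though none of these lists was tested as a whole. The tested ependymal and choroid plexus markers had negative log2 fold changes in 5 of 5 (median -1.23), with sums of 885 to 2210 CPM in WT and 356 to 897 CPM in KO libraries. The mural markers had them in 4 of 4 (median -1.32, sums of 12.2 to 27.8 CPM and 4.36 to 14.3 CPM) and the endothelial markers in 5 of 5 (median -1.07, sums of 16.1 to 57.7 CPM and 15.5 to 25.3 CPM), as did the astrocyte markers in 12 of 12 (median -0.64). The oligodendrocyte markers were split, with 4 higher and 4 lower of 8 tested (median -0.070). Neuronal markers were 2 higher and 8 lower of 10 tested, and myeloid and blood markers 1 higher and 5 lower of 6 tested. The part of these cell types in the members' values was not tested.

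**Figure D4:**
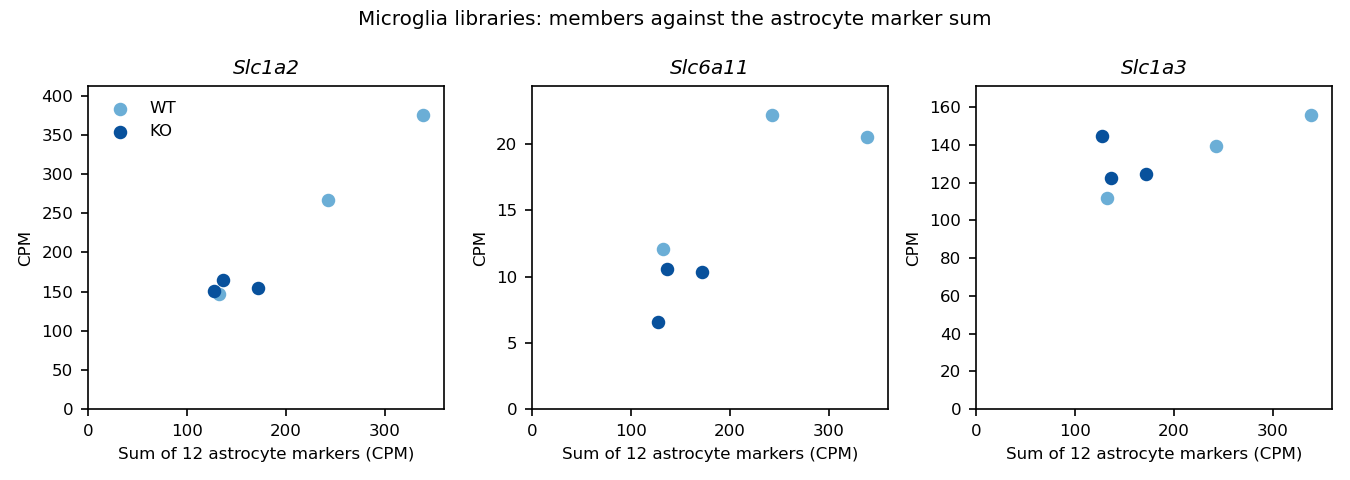
CPM of Slc1a2, Slc6a11 and Slc1a3 in the 6 microglia libraries against the sum of 12 astrocyte markers in the same library. Points are libraries, and both axes start at 0. The 2 WT libraries with marker sums of 242 and 339 CPM hold the highest Slc1a2 and Slc6a11, and the other WT library, at 133 CPM, holds 147 CPM of Slc1a2, below every KO library.

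Whether the genotype difference was unlike in the 2 cell types was tested in 1 fit of all 12 libraries, as the astrocyte change minus the microglia change. The difference was 1.17 for Slc6a11 (SE 0.37, unadjusted edgeR p 0.00717, edgeR adjusted p 0.563) and 0.94 for Slc1a2 (SE 0.41, unadjusted edgeR p 0.0366, edgeR adjusted p 0.748). The other 5 lay between -0.15 and 0.40. edgeR called 0 of 7 members, as it called 0% of all genes, DESeq2 and voom called 0 of 7, and 2 of 7 had an unadjusted edgeR p under 0.05, against 6.37% of all genes. The median over all genes in this fit was 0.16.

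The genes with the most similar pattern to each member were found as those with the smallest root mean square difference of log2 CPM, centred over the 12 libraries. Slc1a2 was nearest to Ndrg2 (0.16), and Slc6a11 to Itih3 (0.13) and Tril (0.20). Slc1a3 was nearest to S1pr1 (0.24), Glul to Abhd4 (0.20) and Glud1 to the calmodulin gene Calm3 (0.14). Slc7a11 and Grm3 had no gene as near, with Sox5 at 0.35 and Igsf21 at 0.30. Among the members themselves the nearest pairs were Slc1a3 with Slc7a11 and Glul with Glud1, both at 0.35. All 12 libraries carry the split by cell type, which these distances share.

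The other genes of glutamate and GABA handling were read from 8 fixed lists with 76 genes, of which 69 were tested between the cell types. edgeR called 45 higher and 10 lower in astrocytes, with a median log2 fold change of 2.89 beside 0.19 over all genes. That is 65.2% called higher and 14.5% called lower, against 36.4% and 28.2% of all genes. The lists too were chosen with earlier results of these data known, so these shares are descriptive only.

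**Figure D5:**
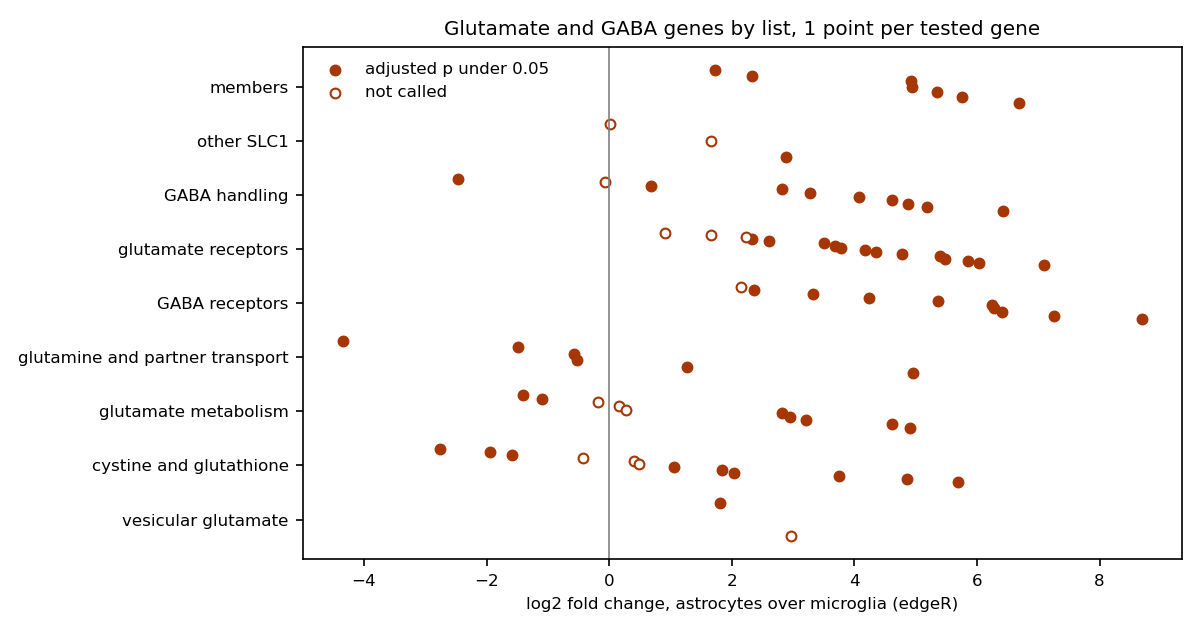
log2 fold change of astrocytes over microglia by edgeR for each tested gene of the 7 members and the 8 lists. Filled points have an adjusted p under 0.05. GABA receptor genes other than Gabra4 lie at 2.15 to 7.25 (the point farthest right is Gabra4, whose place depends on the prior count since its microglia values are at or near 0), and 4 of 6 tested genes of glutamine and partner transport lie below 0.

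The counts by list below are descriptive only, and stand beside 36.4% of all genes called higher and 28.2% called lower in astrocytes. Among genes of GABA handling, 8 of 10 tested were called higher and 1 lower in astrocytes. Slc6a6, the taurine transporter gene, was the one called lower, at 256 and 224 CPM in microglia and 39.7 and 32.8 CPM in astrocytes (-2.47, SE 0.20, edgeR adjusted p 5.17e-08). Of 10 GABA receptor genes tested 9 were called higher and 0 lower. Gabra4, a GABA-A receptor subunit gene, was at 22.4 and 19.1 CPM in astrocytes and at 0.336 and 0 CPM in WT and KO microglia, too low there for a fold change. Of 16 glutamate receptor genes tested 13 were called higher and 0 lower, led by the AMPA receptor gene Gria2 (log2 fold change 7.10, SE 0.46, edgeR adjusted p 5.32e-09). Gria2 was low in microglia, at 2.29 and 1.95 CPM in WT and KO. The vesicular transporter gene Slc17a7, a neuronal gene, was at 5.74 CPM or less in all 4 groups and was called higher in astrocytes at an edgeR adjusted p of 0.0300, but not with the animal as a block, at an adjusted p of 0.0604. All 10 neuronal markers, Slc17a7 among them, were called higher in astrocytes in the main fit (median log2 fold change 2.99). The part of neuronal RNA in the values of these GABA and glutamate genes was not tested.

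Of the other SLC1 transporters 1 of 3 tested was called, the neutral amino acid transporter gene Slc1a4, higher in astrocytes by 2.89 (SE 0.19, edgeR adjusted p 6.23e-09). That is 33.3% of so few genes, where 64.6% of all genes were called. Glutamine and partner transport had 2 genes called higher and 4 lower of 6 tested, against 36.4% and 28.2% of all genes. The glutamine transporter gene Slc38a3 rose most (log2 fold change 4.96, SE 0.28, edgeR adjusted p 1.62e-09), and Slc7a8, the gene of the neutral amino acid exchanger LAT2, fell most, from 433 and 414 CPM in WT and KO microglia to 20.7 and 14.7 CPM in astrocytes (-4.34, SE 0.20, edgeR adjusted p 2.36e-10). Slc3a2, the heavy chain that pairs with xCT and with LAT2, was named after its values were seen. It was at 356 and 376 CPM in microglia and 191 and 226 CPM in astrocytes (-0.53, SE 0.15, edgeR adjusted p 0.00681), opposite in sign to Slc7a11. In glutamate metabolism 5 of 10 were called higher and 2 lower, a share called of 70% that is near the 64.6% of all genes, with the alanine aminotransferase gene Gpt highest (4.91, SE 0.51, edgeR adjusted p 8.10e-07). Gpt was at only 1.84 and 0.264 CPM in WT and KO microglia, too low to be tested between genotypes there, so the size of its fold change is uncertain.

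Between genotypes edgeR called 0 of 51 tested genes in microglia and 0 of 66 in astrocytes, and DESeq2 and voom called 0 in either. At an unadjusted edgeR p under 0.05 there were 5 genes in microglia and 2 in astrocytes, which is 9.80% and 3.03% of those tested, near the 7.42% and 2.37% of all genes. The genes with the smallest p are named by a fixed rule and did not pass the test. In microglia the smallest belonged to the kainate receptor gene Grik5, with 8.24 CPM for WT and 2.67 CPM for KO (log2 fold change -1.65, SE 0.54, edgeR adjusted p 0.583), and the GABA transaminase gene Abat averaged 18.02 and 9.01 CPM (-1.01, SE 0.36, edgeR adjusted p 0.587). Both were far higher in astrocytes, at 54.5 and 322 CPM in WT, and the part of astrocyte RNA in their microglia values was not tested. In astrocytes the smallest belonged to Gclm, a subunit gene of glutamate-cysteine ligase, with 23.3 CPM for WT and 33.9 CPM for KO (0.65, SE 0.25, edgeR adjusted p 0.999).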

How the data were processed

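RNA of sorted microglia and astrocytes was made into full-length cDNA and sequenced, per the labels' protocols. For each cell type the authors deposited estimated counts by gene symbol in a table of its own, not normalized, with library totals of 10319842 to 15575662. STAR 2.7.10b, RSEM 1.3.3, limma and the build GRCm39 are named in the submitters' processing notes; annotation and strand setting: not given in the sources used here. No molecular identifiers were used, so counts include amplified copies and precision from counts covers counting error only. Within a cell type the p-values measure the spread between animals. In the fits of all 12 libraries they measure the spread between libraries within the 4 groups. The main fits had no animal term there, although the cell types are paired by animal.

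Estimated counts were rounded. CPM use the library total. edgeR 4.0.16 in R 4.3.3 was run with TMM factors, filterByExpr (minimum count 10) and Benjamini-Hochberg adjustment over all genes tested: KO against WT on the 6 libraries of a cell type, and astrocytes against microglia and the difference of genotype effects on all 12. SE is the fold change over the square root of F. The fits were also run on simulated data, with independent libraries, a single dispersion and the same base levels in both cell types. That setting differs from these paired data, so no support is drawn from it. Alternatives were DESeq2 1.42.0, voom (limma 3.58.1), other scalings and filters, thinning, left-out replicates, blocks and a marker covariate.

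The members and lists were chosen with earlier results of these data known. The rule names the 7 members, Kpna4, for each list the called gene with the largest rise and fall between cell types and the gene with the smallest unadjusted p for genotype, and the nearest genes without clone or model names. The cell types are paired by animal number in the labels; deviations of the 2 libraries of an animal from their group means correlated across genes at 0.0041 to 0.0962. Genes that this rule names but that are withheld are not reported here.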

Additional observations from a re-analysis of the deposited data

How the results depend on the processing

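All 7 members stayed called as higher in astrocytes under the 17 alternatives of that comparison, blocks, scalings and left-out animals included, and the members called between genotypes or for the difference of genotype effects stayed at 0 under every alternative run. The count of all genes called in microglia, 0, was 41 under DESeq2, 121 when genes with few counts were kept, 41 in a joint fit of the 12 libraries and 0 to 2 with a replicate left out. In astrocytes it became 4 with DESeq2, 17 without a filter and 0 to 1 with a replicate left out, and for the difference of genotype effects 54, 160 and 0 to 6. With the replicate number as a block it was 30 in microglia and 0 in astrocytes. The labels do not tie a WT to a KO animal, and the deviations of same-numbered libraries correlated at 0.14, 0.051 and 0.19 (microglia) and -0.022, 0.042 and 0.23 (astrocytes). The animal block changed no member's call between the cell types. With TMM-scaled CPM the microglia percentages moved to 3.30 for Slc1a3, 19.8 for Glul and 30.2 for Glud1.

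Members near 0 changed sign. In microglia Slc1a3 ran from -0.19 to 0.017 and Grm3 from -0.42 to 0.41 with a replicate left out, and Slc1a3 was at 0.12 with the marker covariate. In astrocytes library totals gave -0.049 for Slc1a2, -0.060 for Slc6a11, -0.010 for Slc7a11 and -0.11 for Grm3, voom gave -0.027 for Grm3, and a left-out replicate gave -0.037 to 0.18, -0.0036 to 0.15, -0.0060 to 0.21 and -0.15 to 0.12 for these 4 genes. For the difference of genotype effects Glud1 was at -0.11 with library totals, -0.034 without a filter, -0.029 without the 8 non-coding RNAs and -0.15 to 0.23 with an animal left out. Grm3 was at 0.044 with voom, 0.085 with the animal block and -0.49 to 0.42 with an animal left out, and Slc7a11 at 0.0079 with voom. Kpna4 between the cell types was at 0.20 in KO animals only. The cause of these changes was not tested. The widest 95% intervals for genotype were those of Slc7a11 and Grm3 in microglia, up to 1.34 and 1.27, on 63 to 122 and 36 to 140 counts per library, with CVs of 44.9% and 57.8% between the KO libraries.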

Other observations

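The fixed list of cystine and glutathione genes held genes called in both directions between the cell types. Of its 12 tested genes 50% were called higher and 25% lower in astrocytes, beside 36.4% and 28.2% of all genes, so the values below describe single genes only. Cbs, the cystathionine beta-synthase gene, was at 131 and 153 CPM in WT and KO astrocytes and 4.17 and 2.58 CPM in microglia (log2 fold change 5.70, SE 0.41, edgeR adjusted p 1.79e-08), and Gclm was higher in astrocytes by 1.83 (SE 0.29, edgeR adjusted p 5.25e-05). The regulators Nfe2l2 and Atf4 and the heme oxygenase gene Hmox1 were called lower in astrocytes than in microglia, by log2 fold changes of -1.58, -1.95 and -2.76 (edgeR adjusted p 3.08e-07, 1.92e-06 and 2.25e-06). Nfe2l2 and Atf4 encode factors known to drive Slc7a11, which was called higher in astrocytes; their order across the cell types was the opposite. These RNA levels do not show the activity of either factor. Gclm, Nfe2l2 and Atf4 are named after their values were seen.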
